A study of Mus musculus with 6 samples.

Results

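Mesoderm, blood and neural lineage regulators were followed in 6 mouse embryonic stem cell (mESC) lines. With earlier results of these data known, a list of 33 genes was taken by symbol. Of these, 32 were matched among the 22380 genes listed per library, and expression of *Sox1* was not analysed here. The members are 9 regulators of the primitive streak and the earliest mesoderm or endoderm, 5 of later mesoderm and heart, 7 of blood or of the RUNX and C/EBP families, and 11 of the neural tube and neural crest. The 3 *Ctrl* lines carried CreERT2 wt/ki, driven by the ubiquitin C promoter, and the Gt(ROSA)26Sor tm1Ytchn/J wt/ki reporter, and the 3 *Tet iTKO* lines carried the same alleles and Tet1 fl/fl, Tet2 fl/fl and Tet3 fl/fl. Each line came from a different blastocyst and was grown on feeder fibroblasts in 2i medium, which holds a GSK3 inhibitor and a MEK inhibitor, with LIF. Both groups received 1 µM 4-OHT, the tamoxifen metabolite that sends CreERT2 to the nucleus, for 2.5 days and were grown for 4 further days, so that all cells were taken at day 6.5. Live Thy1.2-negative, CD326-positive, GFP-positive cells were sorted, the GFP marking cells in which Cre had acted, and their RNA was made into Smart-Seq2 libraries, a full-length cDNA method for low input.

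The TET enzymes TET1, TET2 and TET3 oxidize 5-methylcytosine, chiefly in CG dinucleotides, and thereby take part in DNA demethylation. Embryonic stem cells correspond to the epiblast before gastrulation, when genes that specify the germ layers are mostly silent. At gastrulation, epiblast cells pass through the primitive streak under Wnt, Nodal and BMP signals, and T-box, homeobox and bHLH factors then set up mesoderm, from which heart and blood form, while the anterior epiblast gives rise to the neural plate. Many promoters of such regulators lie in CG-rich DNA and are held by Polycomb complexes in stem cells. GSK3 inhibition, as in 2i medium, stabilizes β-catenin and so mimics Wnt signalling, in both groups alike.

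The values are normalized counts, which are reads per gene divided by the library's size factor and rounded to whole numbers. They summed to between 3964824 and 4219665 per line, with an estimated 3.66 M to 5.10 M reads behind them, and 13431 to 13539 genes were above 0 in *Ctrl* against 14024 to 14363 in *Tet iTKO* lines. *Tet iTKO* line 1 had the fewest estimated reads, 3.66 M, and listed 14024 genes above 0. The part of read depth in these numbers was not tested. At this depth, 3 normalized counts was taken as the smallest value that could be told from 0. The floxed exons could not be set apart in whole-gene values. Over the whole gene, *Tet3* had 28, 13 and 13 normalized counts in *Ctrl* against 10, 3 and 3 in *Tet iTKO* lines, while *Tet1* (682 to 716 against 753 to 895) and *Tet2* (170 to 249 against 211 to 268) were not lower. *Pou5f1*, which encodes the pluripotency factor OCT4, stood at 5208 to 5804 normalized counts in *Ctrl* and 4318 to 4775 in *Tet iTKO* lines, so both groups carried the defining marker of the labelled cell type.

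TET enzymes act on CG dinucleotides, so the stretches of DNA just upstream of the members are shown for 6 genes that span the range of values described below, with each CG in capitals. The first 4 belong to members with at least 3 normalized counts in every *Tet iTKO* line, and the last 2 to members listed at 0 in every line. Members of neither kind, with 2 to 33 CG, are not shown, nor is *Hand2*, listed at 0 with 15 CG. Each sequence is the 250 bases upstream of a RefSeq transcript start in GRCm38.p6, read 5′ to 3′ on the strand of the gene. The deposited values were made with build mm9 per the labels, so these coordinates do not apply to that build.
*Cebpb*, chr2:167688665-167688914, plus strand: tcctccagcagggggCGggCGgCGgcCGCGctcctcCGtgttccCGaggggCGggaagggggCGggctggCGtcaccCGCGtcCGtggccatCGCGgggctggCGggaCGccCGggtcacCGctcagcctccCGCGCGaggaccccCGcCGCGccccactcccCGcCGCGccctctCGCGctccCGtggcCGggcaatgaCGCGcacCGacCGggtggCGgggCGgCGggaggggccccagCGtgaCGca
*Runx3*, chr4:135152295-135152544, plus strand: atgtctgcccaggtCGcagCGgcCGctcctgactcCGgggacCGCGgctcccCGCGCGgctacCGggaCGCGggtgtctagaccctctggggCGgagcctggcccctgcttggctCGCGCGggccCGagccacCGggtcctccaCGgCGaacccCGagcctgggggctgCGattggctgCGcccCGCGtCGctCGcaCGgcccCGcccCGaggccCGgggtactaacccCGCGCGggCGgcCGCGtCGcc
*T*, chr17:8434173-8434422, plus strand: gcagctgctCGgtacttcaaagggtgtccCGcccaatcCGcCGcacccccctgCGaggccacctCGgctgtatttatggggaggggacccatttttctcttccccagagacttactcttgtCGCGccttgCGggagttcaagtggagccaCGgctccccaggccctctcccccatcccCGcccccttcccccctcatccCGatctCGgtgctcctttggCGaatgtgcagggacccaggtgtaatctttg
*Nkx2-5*, chr17:26841566-26841815, minus strand: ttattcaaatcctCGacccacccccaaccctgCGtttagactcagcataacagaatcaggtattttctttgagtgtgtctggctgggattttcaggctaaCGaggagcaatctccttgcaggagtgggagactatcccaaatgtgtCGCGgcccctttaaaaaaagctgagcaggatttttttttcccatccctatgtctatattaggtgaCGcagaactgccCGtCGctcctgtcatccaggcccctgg
*Msgn1*, chr12:11208949-11209198, minus strand: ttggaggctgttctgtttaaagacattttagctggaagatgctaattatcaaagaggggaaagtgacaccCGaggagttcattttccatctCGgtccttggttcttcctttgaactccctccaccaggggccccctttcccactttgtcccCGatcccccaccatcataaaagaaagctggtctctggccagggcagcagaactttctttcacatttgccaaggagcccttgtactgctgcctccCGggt
*Runx2*, chr17:44814628-44814877, minus strand: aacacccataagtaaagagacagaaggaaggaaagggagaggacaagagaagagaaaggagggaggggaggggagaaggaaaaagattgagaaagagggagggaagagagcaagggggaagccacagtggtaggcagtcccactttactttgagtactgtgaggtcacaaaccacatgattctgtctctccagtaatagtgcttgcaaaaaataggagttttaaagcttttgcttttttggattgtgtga

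The CG dinucleotide, which reads the same on both strands, occurred 41 times upstream of *Cebpb*, 38 times at the *Runx3* start shown, 14 times at *T*, 8 times at *Nkx2-5*, 4 times at *Msgn1* and 0 times at *Runx2*. *Runx3* has another listed start with 8 CG. RefSeq entries existed for 28 of the 33 symbols, *Sox1* with 29 CG among them although it has no values here, with 32 starts in all, and none were found for *Mixl1*, *Foxf1*, *Pax3*, *Sox9* and *Sox10*. The median was 15 CG per 250 bases for the members against 6 over 32851 promoters of all genes, and 21 of 32 member promoters held at least 10 CG, as 37.8% of all promoters did. The 12 members with an entry that reached 3 normalized counts in every *Tet iTKO* line had a median of 19 CG over 14 promoters, with a range of 8 to 41. The 5 members listed at 0 in every line had a median of 4, with a range of 0 to 15. The other 10 members, with 12 promoters, ranged from 2 to 33, so that a CG-rich promoter was found both in members with and without detected RNA. These counts describe the reference sequence, and methylation of these promoters was not analysed here.

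**Figure D1:**
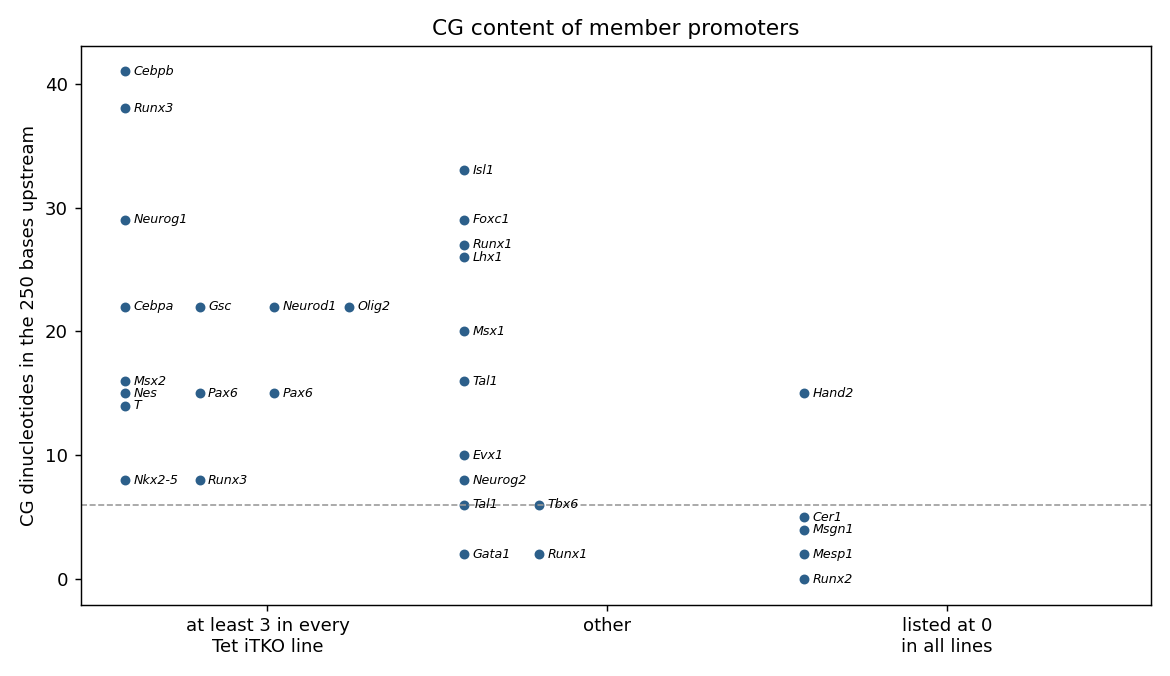
Number of CG dinucleotides in the 250 bases upstream of each member's RefSeq start (y axis), with members in 3 columns by their normalized counts. Each point is a promoter, genes with a second start appear again, and the dashed line is the median of 6 over all promoters. The first column lies at 8 or above, and 4 of the 5 members listed at 0 lie at 5 or below.

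As a group, the members were close to silent in *Ctrl* lines and more of them were detected in *Tet iTKO* lines. In *Ctrl* lines, 10, 8 and 6 of 32 members had at least 3 normalized counts, and in *Tet iTKO* lines 17, 18 and 16 did. The groups did not overlap. Over all genes the same share went from between 52.6% and 52.8% to between 54.6% and 55.7%. Only 4 members (*Cebpb*, *Nes*, *Olig2* and *Neurod1*) were at 3 or above in every *Ctrl* line, where 48.8% of all genes were. In every *Tet iTKO* line 14 of 32 were, against 51.3% of all genes. Of the 28 members that missed this level in at least 1 *Ctrl* line, 10 reached it in every *Tet iTKO* line, against a background of 7.38% of all such genes. These were *T*, *Mixl1*, *Gsc*, *Nkx2-5*, *Runx3*, *Cebpa*, *Pax6*, *Sox10*, *Neurog1* and *Msx2*, which come from all 4 groups. The 7.38% counts in the 6316 genes listed at 0 in every line, which lowers it, while 5 of the 28 members were so listed. None of the 4 members at 3 or above in every *Ctrl* line missed this level in a *Tet iTKO* line, against 277 of 10911 such genes. With only 4 members able to go this way, no direction can be read from it.

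**Figure D2:**
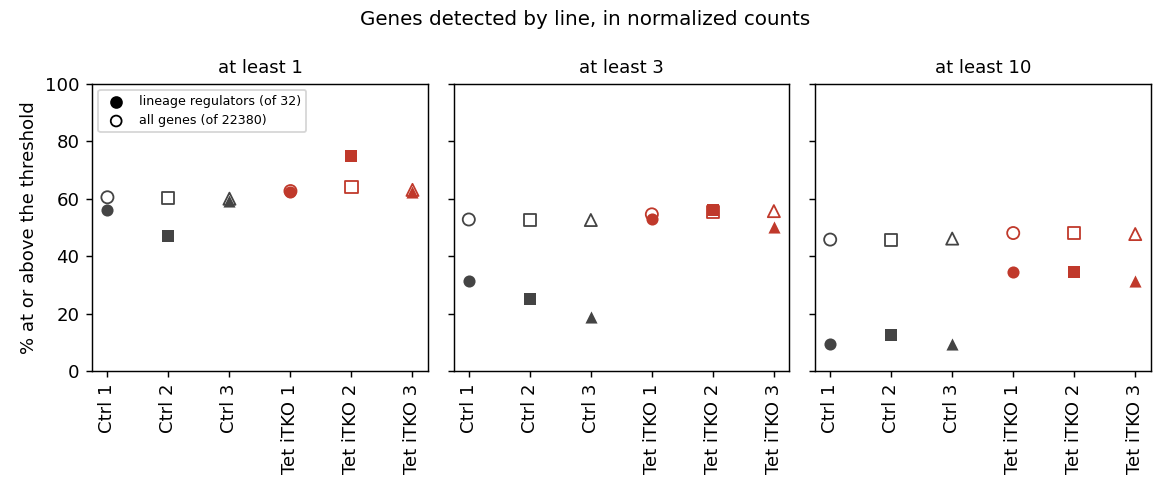
Percent of the 32 matched lineage regulators (filled) and of all 22380 genes (open) at or above 1, 3 or 10 normalized counts in each line, with *Ctrl* in grey and *Tet iTKO* in red. At 3 normalized counts the regulators move from 6 to 10 members in *Ctrl* to 16 to 18 in *Tet iTKO* lines, while the open symbols stay between 52.6% and 55.7%.

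Summed over the 32 members, *Ctrl* lines held 259, 258 and 338 normalized counts and *Tet iTKO* lines 471, 479 and 484. Most of this sum came from *Olig2* and *Cebpb*, and without them the sums were 60, 57 and 53 against 186, 203 and 167. All sums of *Tet iTKO* lines lay above those of *Ctrl* lines in both cases. RNA from bulk cells cannot tell a few cells with much of a transcript from many cells with little.

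Differences between the groups were tested with limma on log2(normalized count + 1) wherever the 6 lines averaged at least 10, and 2 thresholds had to be passed, an adjusted p under 0.05 and a log2 fold change of at least 1 in either direction. Only 4 members reached this mean (*T*, *Cebpb*, *Nes* and *Olig2*). Of these 4, 2 were higher in *Tet iTKO* mESC (*T* and *Cebpb*), against 4.95% of 10524 genes tested, and 0 were lower, against 1.30%. *T* reached the mean of 10 only through its *Tet iTKO* lines (mean 24.7, against 4.33 in *Ctrl*). Its entry into the test was thus not independent of its call. The 23 members above 0 with a mean under 10 were tested in a fit without the filter on low values. That fit called 7 of 27 members higher, against 4.30% of 16064 genes, and 0 lower, against 0.884%. At an unadjusted limma p under 0.05, 3 of the 4 members were higher, against 21.4% of all genes in that fit, and 0 lower, against 22.3%. Without the filter 11 of the 27 were higher, against 17.3%, and 0 lower, against 14.9%. Among the 23 low members alone, 5 were called higher (*Nkx2-5*, *Runx3*, *Cebpa*, *Pax6* and *Sox10*), against 5.34% of 5540 genes with a mean under 10. Most member calls of this fit were lost when any 1 line was left out. The count of 7 was 1 without *Ctrl* line 1, 2 without *Ctrl* line 2, 3 without *Ctrl* line 3 and 0 without any 1 of the 3 *Tet iTKO* lines, while the count over all genes went from 691 to between 364 and 470. At an unadjusted limma p under 0.05 the fits without 1 *Tet iTKO* line had 8 to 11 of the 27 members higher, against 13.6% to 15.0% of all genes, and 0 lower, against 13.1% to 13.6%.

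Without a test, 9 of the 23 low members had every *Tet iTKO* value above every *Ctrl* value, against 9.87% of genes with a mean under 10, and 0 of 23 had the reverse, against 1.90%. Of the 4 members with a mean of at least 10, 3 had this separation (*T*, *Cebpb* and *Nes*), against 21.2% of such genes. *Tet iTKO* lines listed more genes above 0 than *Ctrl* lines, as given above, and the part of this in these counts was not tested.

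**Figure D3:**
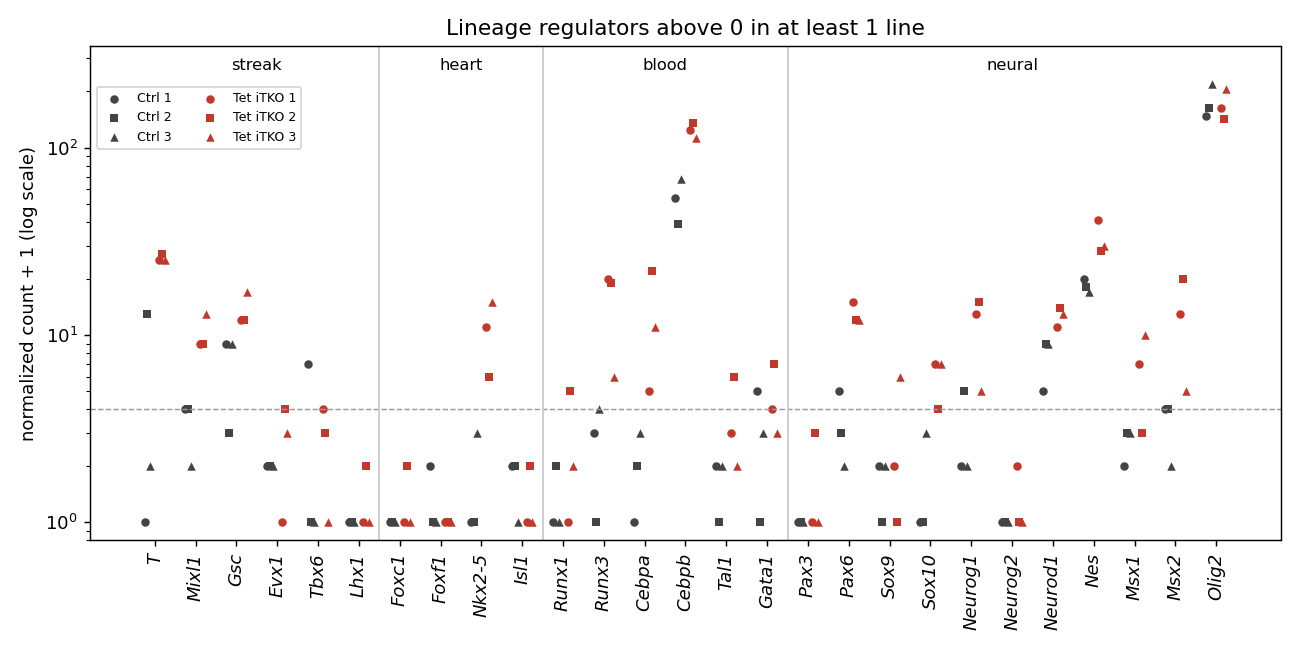
Normalized count + 1 on a log scale (y axis) for the 27 members above 0 in at least 1 line (x axis, grouped by role), with *Ctrl* lines in grey and *Tet iTKO* lines in red and a marker shape for each line number. The dashed line marks 3 normalized counts. *T* lies at 24 to 26 normalized counts in the 3 *Tet iTKO* lines, and most members of the streak and heart groups other than *T*, *Mixl1*, *Gsc* and *Nkx2-5* stay near or below the dashed line.

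*T* encodes Brachyury, the T-box factor that marks the primitive streak and nascent mesoderm and is needed for posterior mesoderm and the notochord. It had the largest fold change of the 4 members with a mean of at least 10. *T* (ENSMUSG00000062327.3) had 0, 12 and 1 normalized counts in *Ctrl* against 24, 26 and 24 in *Tet iTKO* lines. The *Tet iTKO* values lay within 2 of each other, and every one was above the highest *Ctrl* value, which came from *Ctrl* line 2. The log2 fold change was 3.11 (SE 0.73, 95% interval 1.63 to 4.60, limma adjusted p = 0.00097). It was 4.18 without *Ctrl* line 2 and 2.33 without *Ctrl* line 1, and the call held in all 6 fits that left out 1 line. When limma's variances were not given a trend on expression, the adjusted p was 0.061.

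*Mixl1* and *Gsc*, homeobox genes of the streak and of the organizer and mesendoderm, were higher in every *Tet iTKO* line without passing the test. *Mixl1* (ENSMUSG00000026497.7) had 3, 3 and 1 normalized counts in *Ctrl* against 8, 8 and 12 in *Tet iTKO* lines. In the fit without the filter its log2 fold change was 1.68 (95% interval 0.47 to 2.88, limma adjusted p = 0.054). *Gsc* (ENSMUSG00000021095.3) had 8, 2 and 8 normalized counts in *Ctrl* against 11, 11 and 16 in *Tet iTKO* lines, so its groups were separate by 3 normalized counts. The log2 fold change of *Gsc* was 1.11 (95% interval -0.18 to 2.40, limma adjusted p = 0.22).

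The other streak genes had few normalized counts, at most 6 in any line. *Evx1*, a homeobox gene of the posterior streak, had 1 normalized count in each *Ctrl* line and 0, 3 and 2 in *Tet iTKO* lines. *Tbx6*, the T-box factor of paraxial mesoderm, had 6, 0 and 0 in *Ctrl* and 3, 2 and 0 in *Tet iTKO* lines. *Lhx1*, a LIM homeobox gene of the organizer, was above 0 in *Tet iTKO* line 2 only, with 1 normalized count. *Mesp1*, the bHLH factor of cardiac mesoderm precursors, *Msgn1*, which acts in presomitic mesoderm, and *Cer1*, which encodes a secreted Nodal, BMP and Wnt antagonist of anterior endoderm, were listed at 0 in all 6 lines. The streak group thus held genes with values in every *Tet iTKO* line beside genes of the same region of the embryo that were listed at 0. A value of 0 at this depth allows up to 3 normalized counts per line, counting error only.

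Among later mesoderm and heart genes, *Nkx2-5*, the homeobox factor of cardiac progenitors, was the exception to near silence. *Nkx2-5* (ENSMUSG00000015579.4) had 0, 0 and 2 normalized counts in *Ctrl* against 10, 5 and 14 in *Tet iTKO* lines, with no overlap. Its log2 fold change in the fit without the filter was 2.79 (SE 0.63, 95% interval 1.40 to 4.18, limma adjusted p = 0.011). *Hand2*, a bHLH factor of heart and limb, was listed at 0 in every line. *Isl1*, a LIM homeobox gene of the second heart field and of motor neurons, had 1, 1 and 0 normalized counts in *Ctrl* against 0, 1 and 0 in *Tet iTKO* lines. *Foxc1* and *Foxf1*, forkhead genes of paraxial and lateral mesoderm, had 1 normalized count in 1 line each, *Foxc1* in *Tet iTKO* line 2 and *Foxf1* in *Ctrl* line 1. None of these other 4 regulators reached 3 normalized counts in any line.

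Among blood, RUNX and C/EBP regulators, 1 gene was well expressed in both groups. The C/EBP factors are bZIP proteins of myeloid, fat and liver cells. *Cebpb* (ENSMUSG00000056501.3) had 53, 38 and 67 normalized counts in *Ctrl* against 123, 135 and 112 in *Tet iTKO* lines, the highest level of the group. The means were 52.7 ± 14.5 (SD, n = 3) and 123 ± 11.5 (SD, n = 3), the groups did not overlap, and the log2 fold change was 1.24 (SE 0.22, 95% interval 0.81 to 1.68, limma adjusted p = 1.98e-05). When values were corrected for the GC content and length of transcripts, *Cebpb* stood at 0.96 on the log2 scale (limma adjusted p = 0.00057), under the fold threshold. *Tmem189*, which overlaps *Cebpb* on the opposite strand in GENCODE M21, had 154, 141 and 126 normalized counts in *Ctrl* against 159, 118 and 142 in *Tet iTKO* lines (log2 fold change -0.01, limma adjusted p = 0.96). Smart-Seq2 does not keep strand, so reads in the overlap cannot be told apart.

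*Cebpa*, which is required for granulocyte formation, and *Runx3*, known from T cells, neurons and gut, were near 0 in *Ctrl* lines. *Cebpa* (ENSMUSG00000034957.9) had 0, 1 and 2 normalized counts in *Ctrl* against 4, 21 and 10 in *Tet iTKO* lines, which did not overlap but spread widely within *Tet iTKO*. Its log2 fold change without the filter was 2.55 (95% interval 1.04 to 4.06, limma adjusted p = 0.024). *Runx3* (ENSMUSG00000070691.4) had 2, 0 and 3 normalized counts in *Ctrl* against 19, 18 and 5 in *Tet iTKO* lines, with *Tet iTKO* line 3 close to the highest *Ctrl* line. Its log2 fold change was 2.52 (95% interval 0.94 to 4.10, limma adjusted p = 0.031), and neither *Cebpa* nor *Runx3* passed in any of the 6 fits that left out 1 line.

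The other RUNX genes and the early blood factors stayed at or near the floor. *Runx1*, the master regulator of the first blood stem cells, had 0, 1 and 0 normalized counts in *Ctrl* against 0, 4 and 1 in *Tet iTKO* lines. *Runx2*, the factor of bone formation, was listed at 0 in every line, although *Supt3*, which overlaps it on the opposite strand, had 50 to 72 normalized counts in *Ctrl* and 51 to 52 in *Tet iTKO* lines. Whether the fold changes of the RUNX paralogs differ was not tested. *Tal1*, the bHLH factor of blood and endothelial precursors, had 1, 0 and 1 normalized counts in *Ctrl* against 2, 5 and 1 in *Tet iTKO* lines, and *Gata1*, the erythroid zinc finger factor, had 4, 0 and 2 against 3, 6 and 2. Both overlapped between groups, with limma adjusted p of 0.22 for *Tal1* and 0.44 for *Gata1*.

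Neural and neural crest regulators ranged from a gene already expressed in *Ctrl* lines to genes near 0. *Olig2*, the bHLH factor of motor neuron and oligodendrocyte precursors, had 146, 163 and 218 normalized counts in *Ctrl* against 162, 141 and 205 in *Tet iTKO* lines. The groups overlapped fully and the log2 fold change of *Olig2* was -0.05 (95% interval -0.36 to 0.27, limma adjusted p = 0.84). After the correction for GC content and length the value of *Olig2* was -0.38 (limma adjusted p = 0.049). *Nes*, which encodes the intermediate filament nestin of neural progenitors, had 19, 17 and 16 normalized counts in *Ctrl* against 40, 27 and 29 in *Tet iTKO* lines. These did not overlap, yet the log2 fold change of *Nes* was 0.83 (95% interval 0.06 to 1.60, limma adjusted p = 0.089) and 0.35 after the correction.

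*Pax6*, the paired-box factor of eye, forebrain and ventral neural tube, and *Sox10*, the HMG factor of neural crest and its glia, passed the test in the fit without the filter. *Pax6* (ENSMUSG00000027168.12) had 4, 2 and 1 normalized counts in *Ctrl* against 14, 11 and 11 in *Tet iTKO* lines, a tight and separate group. Its log2 fold change was 2.06 (95% interval 0.84 to 3.27, limma adjusted p = 0.024). *Sox10* (ENSMUSG00000033006.8) had 0, 0 and 2 normalized counts in *Ctrl* against 6, 3 and 6 in *Tet iTKO* lines, which is at or just above the floor. Its log2 fold change was 2.01 (95% interval 0.71 to 3.31, limma adjusted p = 0.035), and 1.41 with an adjusted p of 0.11 after the correction.

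The proneural bHLH genes and the Msh homeobox genes were mostly higher in *Tet iTKO* lines but did not pass. *Neurog1* had 1, 4 and 1 normalized counts in *Ctrl* against 12, 14 and 4 in *Tet iTKO* lines, so that its lowest *Tet iTKO* line tied with *Ctrl* line 2 (log2 fold change 1.87, limma adjusted p = 0.066). *Neurod1*, a bHLH gene of neuron and islet differentiation, had 4, 8 and 8 against 10, 13 and 12 (0.77 on the log2 scale, limma adjusted p = 0.33). *Cerkl*, which overlaps *Neurod1* on the same strand, had 3, 5 and 1 against 3, 0 and 1. *Neurog2* was above 0 in *Tet iTKO* line 1 only, with 1 normalized count. *Msx2*, a BMP target of the neural plate border and limb, had 3, 3 and 1 normalized counts in *Ctrl* against 12, 19 and 4 in *Tet iTKO* lines (1.78 on the log2 scale, limma adjusted p = 0.081). Its paralog *Msx1* had 1, 2 and 2 against 6, 2 and 9, and the 2 groups shared the value 2.

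Of the remaining neural genes, *Pax3*, the paired-box factor of dorsal neural tube and muscle precursors, was above 0 in *Tet iTKO* line 2 only, with 2 normalized counts. *Sox9*, the HMG factor of neural crest and cartilage, had 1, 0 and 1 normalized counts in *Ctrl* against 1, 0 and 5 in *Tet iTKO* lines. Both stayed within the range of a few reads.

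**Figure D4:**
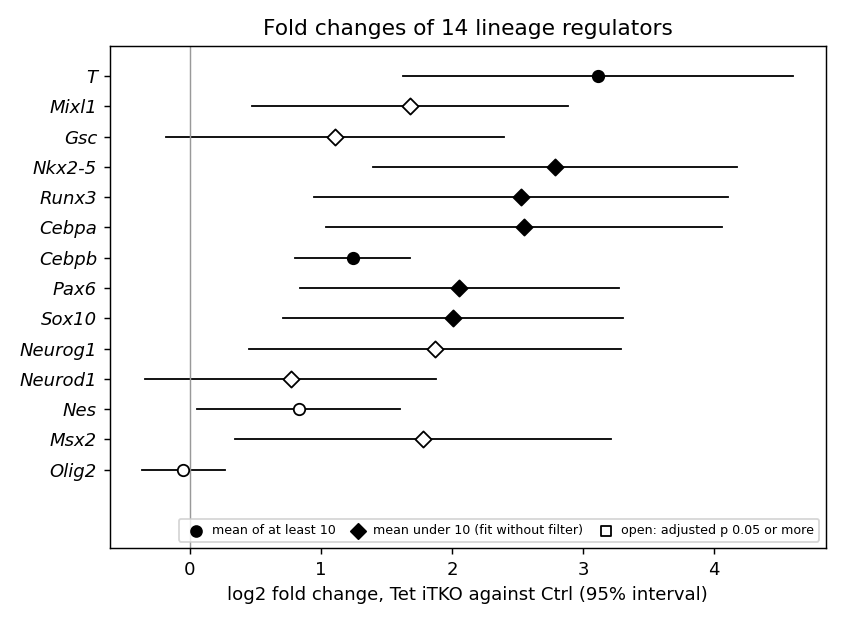
Log2 fold changes on the log2(normalized count + 1) scale with 95% intervals (x axis) for the 14 members (y axis) with at least 3 normalized counts in every *Tet iTKO* line. Circles are members with a mean of at least 10, diamonds are members from the fit without the filter, and open symbols have an adjusted p of 0.05 or more. *T* has the largest value at 3.11 and *Olig2* the smallest at -0.05. Because 10 of the 14 are shown only through their *Tet iTKO* values, the mostly positive values are not independent of the choice.

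Levels between genes were compared per kilobase of the longest GENCODE M21 transcript. In *Ctrl* lines *Olig2* stood at 69.4 normalized counts per kb and *Cebpb* at 35.0, and every other member was at 4.73 or below, the value of *Gsc*. In *Tet iTKO* lines *Cebpb* stood at 82.0 per kb and *Olig2* at 66.9, followed by *T* at 12.1 and *Gsc* at 9.99. The level of *T* per kb in *Tet iTKO* lines was thus far under that of *Olig2*.

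Further genes of the same lineages were taken from lists that do not overlap the members. Among 38 other gastrulation and mesoderm genes, 16 were tested, of which 9 were higher and 1 lower in *Tet iTKO* mESC at an adjusted p under 0.05. Their median log2 fold change was 0.67, against 0.01 over all 10524 genes tested, of which 1731 (16.4%) were higher and 1934 (18.4%) lower. The 4 with the largest change were *Dll3*, a Notch pathway gene of presomitic mesoderm, the Wnt ligand genes *Wnt8a* and *Wnt3a*, and *Gata4*, a zinc finger factor of heart and endoderm. *Dll3* had 0, 1 and 1 normalized counts in *Ctrl* against 23, 49 and 47 in *Tet iTKO* lines (log2 fold change 4.60, SE 0.69). *Wnt8a* had 6, 2 and 7 against 38, 20 and 21 (2.25 on the log2 scale), *Wnt3a* 2, 8 and 5 against 15, 33 and 14 (1.88), and *Gata4* 2, 7 and 10 against 21, 12 and 27 (1.64). For all 4 the *Tet iTKO* and *Ctrl* lines did not overlap, and their limma adjusted p ran up to 0.030, that of *Gata4*, which was 0.11 after the correction. All 4 had *Ctrl* means of 0.67 to 6.33 and reached the mean of 10 only through their *Tet iTKO* lines. Their part in the 9 higher genes and in the median is thus not independent of the filter.

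Below the mean of 10, and chosen after their values were seen, the streak signal genes *Wnt3* and *Fgf8* were listed at 0 in all 3 *Ctrl* lines. *Wnt3* had 11, 9 and 10 normalized counts in *Tet iTKO* lines and *Fgf8* 13, 10 and 7. Against the floor of 3 normalized counts per line, both means were at least 3.33-fold higher. *Hand1*, a bHLH gene of extraembryonic and lateral mesoderm and the paralog of the silent member *Hand2*, was likewise listed at 0 in *Ctrl* and had 6, 5 and 6 in *Tet iTKO* lines.

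Among 28 other blood genes, 6 were tested, with a median log2 fold change of 0.33. Of these 6, 4 were higher, against 16.4% of all genes, and 0 lower, against 18.4%. *Myb*, a regulator of blood progenitors, had 37, 15 and 24 normalized counts in *Ctrl* against 40, 61 and 60 in *Tet iTKO* lines (log2 fold change 1.12, limma adjusted p = 0.0082). *Hhex* rose by 0.66, *Ldb1* by 0.36 and *Kit* by 0.30 on the log2 scale. All 4 are also known from other tissues. After the correction 2 of the 4 passed, where 1003 of all 10457 genes tested were higher. *Spi1*, which encodes the myeloid factor PU.1, and *Epor*, the erythropoietin receptor gene, were looked at after their values were seen. *Spi1* had 4, 3 and 2 normalized counts against 18, 13 and 18, and *Epor* had 0, 3 and 1 against 12, 13 and 10.

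Among 56 other neural and neural crest genes, 13 were tested, 2 were higher and 3 lower, which is near the 16.4% and 18.4% of all genes, with a median log2 fold change of 0.00. *Sox11*, an HMG factor of immature neurons, fell by 1.30 on the log2 scale, from 40, 35 and 32 normalized counts to 11, 15 and 16 (limma adjusted p = 0.0085). *Nkx6-2* fell by 0.85 and *Sox4* by 0.59. *Olig1*, the paralog and neighbour of *Olig2*, had 238, 258 and 176 normalized counts in *Ctrl* against 272, 297 and 351 in *Tet iTKO* lines (log2 fold change 0.46, limma adjusted p = 0.0044), and 0.12 after the correction. At both thresholds 0 of these 13 were higher and 1 was lower (*Sox11*).

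Markers of other cell states were set beside these results. Feeder fibroblasts also express several mesoderm genes. Over 18 fibroblast markers the sums were 414 to 435 normalized counts in *Ctrl* and 689 to 732 in *Tet iTKO* lines. Of 9 tested 4 were higher (*Col1a1*, *Col1a2*, *Col3a1* and *Mmp2*), against 16.4% of all genes tested. After the correction 4 were higher, but not the same 4. *Col1a1* was no longer among them, as it went from 0.89 to 0.27 on the log2 scale (limma adjusted p = 0.10). *Thy1*, the antigen used to sort feeder cells away, had 30, 46 and 41 normalized counts in *Ctrl* against 47, 35 and 23 in *Tet iTKO* lines. *Epcam*, which encodes CD326, the antigen sorted for, had 706 to 825 in *Ctrl* and 1006 to 1100 in *Tet iTKO* lines (log2 fold change 0.45, limma adjusted p = 4.53e-06). Among low fibroblast markers, *Fbn1* had 2, 1 and 2 normalized counts in *Ctrl* against 15, 10 and 6 in *Tet iTKO* lines (2.03 on the log2 scale without the filter, limma adjusted p = 0.025). *Postn*, *Twist2* and *S100a4* were at 4 or below in every line, and *Lum*, *Dcn* and *Prrx1* had 0 to 15 in *Ctrl* and 0 to 6 in *Tet iTKO* lines. Over 10 markers of the primed epiblast, the state just before gastrulation, the sums were 3824 to 4071 and 5083 to 5135. Of 8 tested, 6 were higher, against 16.4% of all genes. After the correction 4 were higher and 1 lower, where 1003 of all 10457 genes tested were higher and 2030 lower. The highest of them, *Dnmt3b*, which encodes a DNA methyltransferase, had 2031 to 2070 and 2340 to 2502 normalized counts (log2 fold change 0.24, and -0.02 after the correction). Over 13 pluripotency markers the sums were 14340 to 14594 in *Ctrl* and 13693 to 14017 in *Tet iTKO* lines. Of 12 tested, 4 were higher and 4 lower, against 16.4% and 18.4% of all genes. The part of these markers in the members' values was not tested.

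**Figure D5:**
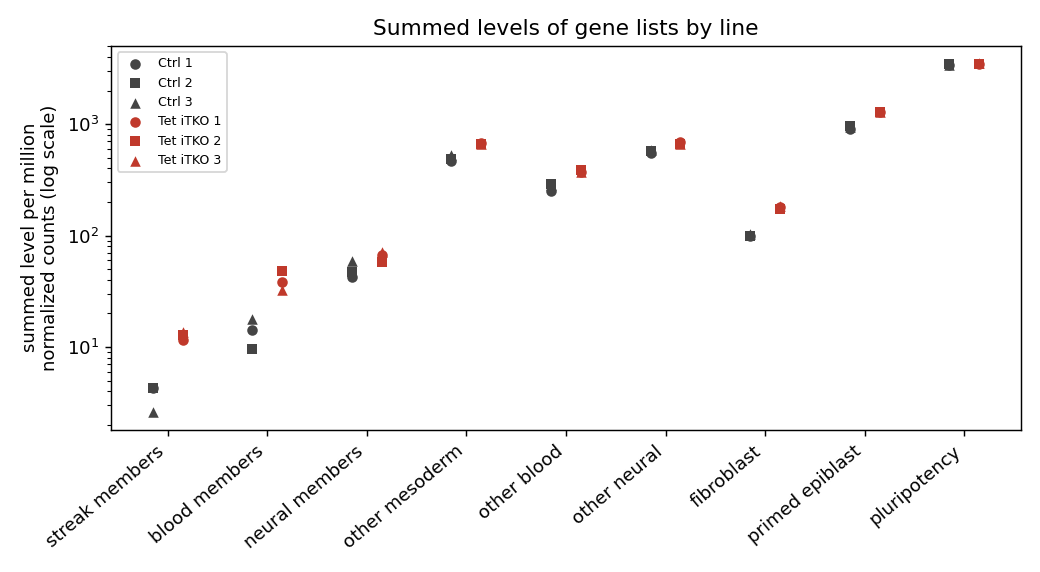
Summed level of gene lists per 1 M normalized counts of the line (y axis, log scale), for streak, blood and neural members, the further genes of the same lineages and the marker lists (x axis), with *Ctrl* in grey and *Tet iTKO* in red and a shape for each line number. Streak members lie at 2.61 to 4.28 in *Ctrl* and 11.6 to 13.5 in *Tet iTKO* lines, while pluripotency markers lie between 3399 and 3507 in all lines.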

How the data were processed

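RNA of 6 mESC lines, 3 *Ctrl* and 3 *Tet iTKO*, was read in pairs of 50 bases. Alignment by the authors was with STAR (unique alignments; mm9 per the labels), and reads per gene, from HTSeq 0.7.1 in its stranded setting, were divided by DESeq2 1.26.0 size factors. The deposited values, in the unit score, are the results, rounded to whole numbers, so no count test was run. Estimated reads on genes were 3.66 M to 5.10 M per line.

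Groups were compared with limma 3.58.1 (R 4.3.3; lmFit, eBayes with trend) on log2(value + 1) wherever the mean reached 10, and p-values were adjusted over all genes tested by Benjamini-Hochberg. The scale understates changes of low genes. On simulated data for this comparison (10519 genes tested, changed genes with a mean of at least 20), 100 of 100 genes changed 4-fold and 93 of 100 changed 2-fold passed the adjusted p, as did 4 of 10319 unchanged genes. Genes with low values were not part of this check. Symbols, lengths and GC content came from GENCODE M21, promoters from RefSeq (GRCm38.p6). The correction for GC content and length was a loess fit (span 0.3) per line. Counts and sums were made with pandas 2.3.3 (Python 3.11.15).

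The members and lists were chosen with earlier results of these data known, so shares over all genes beside them are not independent support. Named were all members, up to 4 genes per related list with the largest change among those passing the adjusted p, the sort and target genes, the highest marker and overlapping genes. Other genes were named after their values were seen. Deviations of same-numbered lines had correlations near 0 over genes (0.001, -0.005 and -0.003), and lines came from different embryos. The main fits therefore paired no samples. Whether same-numbered lines shared an experiment cannot be told from these correlations. The alternatives were pseudocounts, filters, scalings, a replicate block, the correction and fits without each line.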

Additional observations from a re-analysis of the deposited data

How the results depend on the processing

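The cause of these changes was not tested unless the alternative's construction shows it. With a mean of at least 10, 2 members were higher in *Tet iTKO*. This count was 1 without the variance trend (*T* lost), 1 with the correction for GC content and length (*Cebpb* under the fold threshold), 1 with a mean of at least 50 (fewer genes tested), 7 without the filter, and 2 in every fit without 1 line. The replicate block also gave 2, and the block with the correction 1. In the fit without the filter, whose other alternatives were chosen after seeing the data, the 7 became 4 with quantile normalization, 4 without the trend, 1 with the replicate block, 4 with the block and correction, and 0 to 3 without 1 line. The count of members lower at both thresholds stayed at 0 in these fits. Among all genes, 521 higher and 137 lower became 353 and 253 with quantile normalization, and without the filter 691 and 142 became 468 and 272, or 490 and 250 with the correction, which moved the median of all genes from 0.08 to -0.09. The log2 fold change of *Olig2* ran from -0.19 to 0.12 without 1 line and was above 0 without *Ctrl* line 3 (0.12) and without *Tet iTKO* line 2 (0.07).

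The 14 members at 3 or above in every *Tet iTKO* line were 7 at a minimum of 10. The 4 in *Ctrl* were 11 at a minimum of 1 and 7 in at least 2 of 3 lines. Without 1 line these counts were 14 to 15 and 4 to 6. At an adjusted p under 0.05, 1731 of all genes higher and 1934 lower became 1582 and 1627 without the filter. With the correction they became 1003 and 2030. For mesoderm genes, 9 higher and 1 lower became 14 and 0 without the filter and 6 and 1 with the correction. Without 1 line they were 6 to 10 and 0 to 1. For blood genes, 4 higher became 2 with the correction and 1 to 3 without 1 line. For neural genes, 2 higher and 3 lower became 1 and 4 with the correction and 3 and 1 without the filter. Without 1 line they were 1 to 2 and 1 to 3. The replicate block moved none of these counts for related genes by over 1.5 times. Of the other results, 153 kept direction and side of the threshold, 41 lost a call, 6 gained one and 2 turned. At 3.66 M to 5.10 M reads, members under 3 normalized counts cannot be compared.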
